A study of Mus musculus with 48 samples.

Results

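The genes described are 6 NMDA receptor subunit genes of the mouse, Grin1, Grin2a, Grin2b, Grin2c, Grin2d and Grin3a. The family also has Grin3b, which is not analysed here. The members were taken by symbol from the 24062 genes of each count file, and all 6 were found. NMDA receptors are glutamate-gated cation channels built from 4 subunits that let calcium into the postsynaptic cell when glutamate and a co-agonist, glycine or D-serine, are bound while the membrane is depolarised. Every receptor contains GluN1, encoded by Grin1, which binds the co-agonist. The GluN2 subunits bind glutamate and set the channel's kinetics and magnesium block, and GluN3 subunits bind glycine and lower calcium entry. In the neocortex these receptors are carried mainly by neurons and underlie synaptic plasticity, and ethanol is a known inhibitor of them.

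The tissue was medial prefrontal cortex, taken from mice of the inbred strain C57BL/6 whose age and sex the labels do not give. The ethanol mice could drink 15% ethanol on alternate days for 60 days, with water alone on the days between, and were killed when the bottles were taken away, and the water mice had water over the same 60 days. From each of these mice a portion of the minced tissue was kept as total homogenate, a mixture of all cortical cells (10 ethanol and 9 water libraries), and the remainder gave microglia, the brain's resident macrophages, captured on beads against CD11b (10 ethanol and 8 water libraries). A second cohort had an intraperitoneal dose of lipopolysaccharide (LPS, a bacterial cell wall component) at 1.5 mg/kg or of saline 1 week before death, and gave microglia only (5 LPS and 5 saline libraries). The labels mention no genetic change in any group. CD11b is also carried by neutrophils and by macrophages of the brain's borders, so the bead fraction is defined by that surface protein.

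Reads in genes numbered 24165280 to 62415707 per library in ethanol homogenates, 24531366 to 67544237 in water homogenates and 9720478 to 39876818 in the microglia libraries. In a check of the labelled fractions, the 10 microglia markers summed to 26530 to 36667 CPM (a gene's reads scaled to 1000000 reads in genes per library) in the 28 microglia libraries and to 523 to 677 CPM in the homogenates. The homogenates of 4 water mice carry the text of the bead isolation in their label, and their sums of 568.4 to 664.8 CPM lay among the other homogenates, so they were kept as labelled. The share of reads outside genes averaged 27.1% ± 4.20 in ethanol homogenates and 22.5% ± 1.91 in water homogenates (SD, n = 10 and 9), a difference that moved with the treatment. Among the microglia, 2 libraries of water mice stood apart. That of mouse 19 had 14437 CPM summed over 6 neutrophil markers, against a median of 132 CPM over the water microglia, and that of mouse 24 had the fewest reads and 56.1% of them outside genes. In the second cohort, the libraries of LPS mice 40 and 51 had 41.8% and 41.3% of reads outside genes. The share was 25.4% to 27.1% in LPS mice 33, 44 and 50, and 21.1% to 36.9% in saline mice.

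All 6 genes lie on the minus strand of the mouse genome, at chr2:25291181-25319187 for Grin1, chr16:9567898-9995560 for Grin2a, chr6:135713233-136173511 for Grin2b, chr11:115249169-115267243 for Grin2c, chr7:45831883-45878378 for Grin2d and chr4:49661611-49845744 for Grin3a (GRCm38, which is mm10). The RefSeq promoter table (GRCm38.p6) held 3 of the 6, and these are shown because all of their genes were lower in the isolated microglia described below, by edgeR Grin1 by more than Grin2c and Grin2d. Each stretch is written on the coding strand and runs from 250 bases before to 50 bases after the annotated start, which for Grin2d lies inside the GENCODE gene span given above. Capitals mark matches to GGGCGG (a GC box), GCGGGGGCG (the Egr-type motif) and CACGTG (an E-box), searched on both strands together with TGACGTCA (the CRE), which had no match.
Grin1 (chr2:25319138-25319437, minus strand): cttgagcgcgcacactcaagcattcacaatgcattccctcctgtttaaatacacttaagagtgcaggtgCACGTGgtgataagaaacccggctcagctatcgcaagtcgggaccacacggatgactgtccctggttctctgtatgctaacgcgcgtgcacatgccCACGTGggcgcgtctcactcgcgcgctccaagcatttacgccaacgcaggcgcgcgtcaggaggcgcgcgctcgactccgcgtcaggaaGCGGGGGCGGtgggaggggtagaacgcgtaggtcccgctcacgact
Grin2c (chr11:115267194-115267493, minus strand): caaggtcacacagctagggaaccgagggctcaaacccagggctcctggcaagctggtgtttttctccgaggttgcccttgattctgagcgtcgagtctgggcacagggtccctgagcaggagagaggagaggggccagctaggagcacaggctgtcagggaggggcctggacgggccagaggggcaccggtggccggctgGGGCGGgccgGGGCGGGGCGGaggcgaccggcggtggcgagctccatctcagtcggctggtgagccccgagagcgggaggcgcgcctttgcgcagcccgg
Grin2d (chr7:45866632-45866931, minus strand): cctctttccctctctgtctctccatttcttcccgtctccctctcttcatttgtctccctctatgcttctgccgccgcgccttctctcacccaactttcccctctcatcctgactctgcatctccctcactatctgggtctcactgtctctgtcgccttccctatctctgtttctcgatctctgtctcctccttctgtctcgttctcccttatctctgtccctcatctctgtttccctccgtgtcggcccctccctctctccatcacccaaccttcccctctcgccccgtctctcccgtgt
Counting the first transcribed base as 1, the Grin1 stretch held CACGTG at -181 and -85, and GCGGGGGCG at 5 overlapping GGGCGG at 9. The Grin2c stretch held GGGCGG at -50, -40 and -35, with the pair at -40 and -35 sharing a base, and none of the motifs was in the Grin2d stretch. Of 32851 mouse promoters in the table, 35.7% held GGGCGG, 2.91% GCGGGGGCG, 7.15% CACGTG and 1.79% TGACGTCA. The stretches held 33 CpG pairs in Grin1, 22 in Grin2c and 12 in Grin2d, against a median of 7.0 over the table. A match is a run of letters and not evidence of binding.

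Prefrontal homogenate held transcripts of all 6 subunits. Per kilobase of merged exons, Grin1 stood at 71.5 CPM per kb in ethanol mice and 70.8 in water mice. It was followed by Grin2c (22.4 and 24.9 CPM per kb), Grin2b (13.9 and 11.8), Grin3a (5.20 and 3.68), Grin2d (3.67 and 3.61) and Grin2a (2.81 and 2.51). Grin1, the subunit every receptor needs, made up 59.9% of the per-length sum of the 6 in ethanol mice and 60.2% in water mice.

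The order below Grin1 rested on which length was used, because the untranslated parts of the transcripts are long in some members. Both measures divide all reads of a gene, those in untranslated parts included. Division by coding length therefore raises genes with long untranslated parts. Grin2b has 24842 merged exon bases and 4446 coding bases, and Grin2c 5037 and 3717. Per kilobase of coding length, Grin1 was again first (241 CPM per kb in ethanol mice and 239 in water mice), and Grin2b (77.5 and 66.0) then stood above Grin2c (30.4 and 33.7). The pair was ordered one way in 19 of 19 homogenates by merged exons and the other way in 19 of 19 by coding length. Grin3a (18.8 and 13.3 CPM per kb of coding length), Grin2a (11.5 and 10.3) and Grin2d (6.15 and 6.05) filled the low end. Grin2a and Grin2d changed places as well, with Grin2d higher in 16 of 19 homogenates by merged exons and Grin2a higher in 18 of 19 by coding length. Grin3a and Grin2d were not separated by merged exons, since Grin3a was higher in 12 of 19 homogenates.

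**Figure D1:**
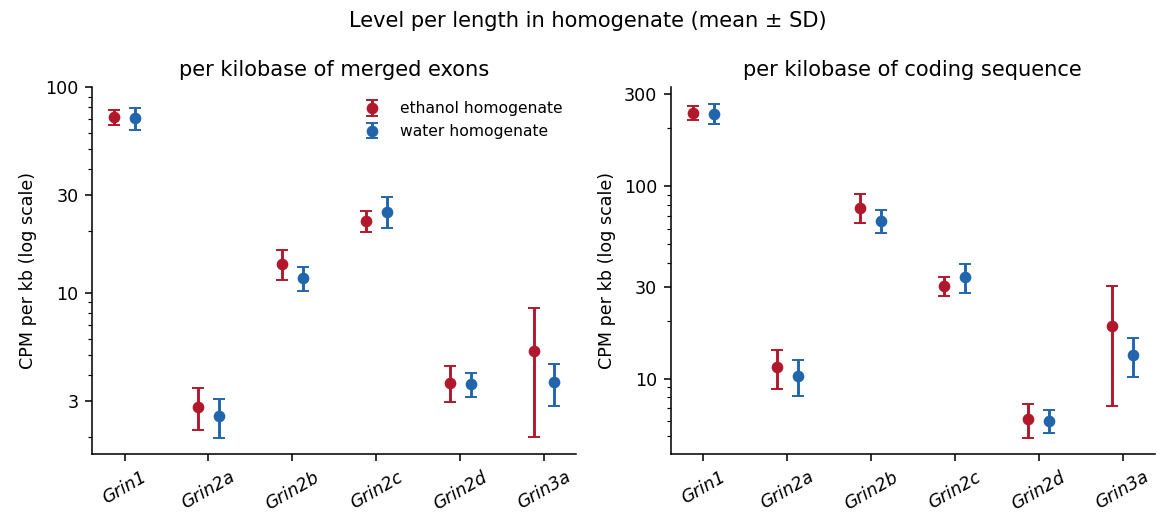
Level of each subunit in homogenate in CPM per kilobase (log scale) by merged exon length (left) and by coding length (right), as mean ± SD of 10 ethanol (red) and 9 water (blue) mice. Grin1 is highest in both panels, while Grin2b and Grin2c change places between them.

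None of the 6 subunits passed the test between ethanol and water homogenates. By edgeR's quasi-likelihood test with Benjamini-Hochberg adjustment over all 15215 genes tested, 0 of 6 were called at an adjusted p of 0.05, where 0.808% of all genes were called, and the DESeq2 and limma voom fits also called 0 of 6. At an unadjusted p of 0.05, 2 of 6 were counted, Grin2b and Grin3a, against 16.1% of all genes. The fold changes of 5 of the 6 were above 0, against 7247 of the 15215 genes tested. The median log2 fold change of the 6 was 0.11, against -0.01 over all genes. The same 7247 of 15215 is the background of the counts of positive fold changes in homogenate given below.

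Grin1 ranged from 569 CPM in ethanol mouse 14 through a median of 703 to 772 CPM in mouse 9, and in water mice from 576 through 738 to 785 CPM. The groups overlapped almost fully. Grin1 averaged 694 ± 60.4 CPM in ethanol mice and 687 ± 83.5 CPM in water mice (SD, n = 10 and 9), and the log2 fold change was 0.03 ± 0.07 (SE; edgeR adjusted p = 0.899).

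Grin2b encodes GluN2B, the glutamate-binding subunit that prevails early in life and is kept in adult forebrain, where it gives the receptor slow currents and sensitivity to ifenprodil. Its lowest, median and highest levels were 214, 363 and 425 CPM in ethanol mice and 255, 270 and 351 CPM in water mice. Of the 10 ethanol mice, 6 lay above every water mouse and 9 above the water median, while ethanol mouse 14 lay below every water mouse. The means were 344 ± 58.2 CPM in ethanol mice and 293 ± 39.9 CPM in water mice (SD, n = 10 and 9), which gave 0.24 ± 0.10 as log2 fold change (SE; edgeR adjusted p = 0.225, unadjusted p = 0.0227). The adjusted p ran from 0.0819, without ethanol mouse 14, to 0.738 over 30 alternatives. With the share of reads outside genes as a covariate the log2 fold change was 0.19 (adjusted p = 0.717 by edgeR).

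Grin2a encodes GluN2A, the subunit that replaces part of GluN2B at maturing synapses and speeds the current. It reached 26.4, 53.0 and 67.6 CPM (lowest, median, highest) in ethanol mice and 33.2, 40.9 and 64.0 CPM in water mice. Apart from the lowest and the highest, all ethanol mice lay within the water range. The log2 fold change was 0.17 ± 0.14 (SE, adjusted p = 0.583 by edgeR), with means of 50.3 ± 11.4 CPM in ethanol mice and 45.03 ± 9.57 CPM in water mice (SD, n = 10 and 9).

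The balance between these 2 subunits, often followed through cortical development, did not differ detectably. The count of Grin2a over that of Grin2b was 0.145 ± 0.0161 in ethanol mice and 0.153 ± 0.0213 in water mice (SD, n = 10 and 9). The log2 difference was -0.07, with an exact two-sided permutation p of 0.394 over 92378 arrangements. The lowest and highest ratios were 0.112 and 0.159 in ethanol mice and 0.126 and 0.187 in water mice, and the ranges overlapped.

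Grin2c and Grin2d encode GluN2C and GluN2D, which give receptors with weak magnesium block. In rodents GluN2C is best known from cerebellar granule cells and its transcript has also been described in forebrain astrocytes, while GluN2D in adult cortex is known from inhibitory interneurons. Grin2c was the single member with a fold change below 0 over all 19 mice, but without water mouse 17 its log2 fold change was -0.08 and those of Grin1 and Grin2d were -0.01 and -0.002. Without the 4 water homogenates whose labels carry the microglia isolation protocol, Grin1 was -0.05. Grin2c had 96.5, 110 and 136 CPM (lowest, median, highest) in ethanol mice and 102, 120 and 169 CPM in water mice, where mouse 17 was highest. A total of 2 of 10 ethanol mice lay below every water mouse and none above them all, and the log2 fold change was -0.14 ± 0.08 (SE, adjusted p = 0.437 by edgeR). Grin2d had 14.95, 24.96 and 31.2 CPM in ethanol mice and 18.7, 23.2 and 29.8 CPM in water mice, overlapping ranges whose log2 fold change was 0.04 ± 0.12 (SE; edgeR adjusted p = 0.906).

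Grin3a encodes GluN3A, which holds back spine maturation in young brain. Relative to its mean it had the widest spread of the 6 (coefficient of variation 61.7% in ethanol mice and 22.9% in water mice), with 28.0, 51.9 and 171 CPM (lowest, median, highest) in ethanol mice and 31.5, 48.9 and 57.1 CPM in water mice. Ethanol mouse 7 alone stood far above, since the next ethanol mouse had 67.1 CPM. The log2 fold change was 0.52 ± 0.25 (SE, adjusted p = 0.307, unadjusted p = 0.0490 by edgeR), and without ethanol mouse 7 it was 0.22 (adjusted p = 0.519 by edgeR). The same homogenate was highest for the striatal neuron markers, whose sum over 7 genes was 431 CPM against 136 to 298 CPM in the other 18 homogenates. Among them Rgs9 was at 83.1 CPM against at most 38.8 CPM, and Adora2a at 14.7 CPM against at most 5.08 CPM, whereas Penk and Tac1 were within the range of the other mice. The part of these markers in the Grin3a value was not tested.

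**Figure D2:**
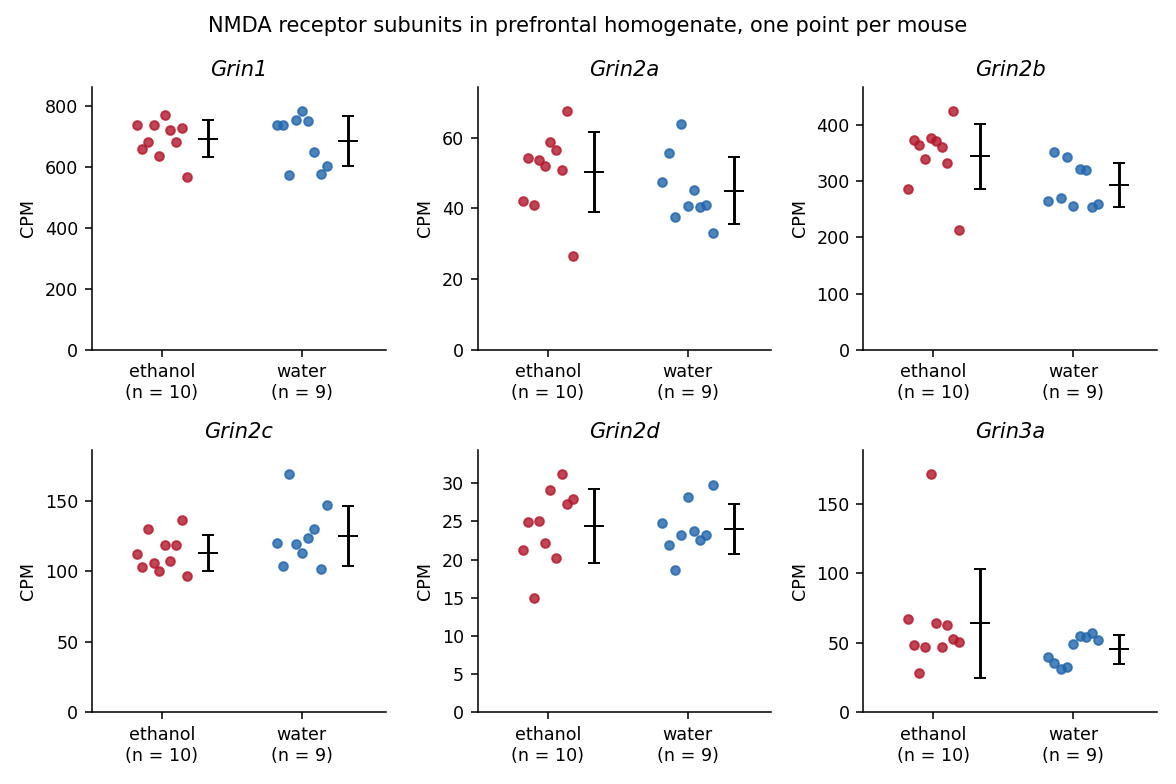
CPM of each subunit in homogenate, with ethanol mice (red, n = 10) left of water mice (blue, n = 9), 1 point per mouse and mean ± SD beside the points. The groups overlap in every panel, and Grin3a in ethanol mouse 7 stands alone at 171 CPM.

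In bulk RNA, fewer cells of a type and less RNA per cell cannot be told apart. The 12 neuron markers summed to 7961 to 10280 CPM in ethanol mice and 8509 to 11652 CPM in water mice, and 2 of the 12 had a positive fold change. The 11 GABAergic markers summed to 753 to 1031 CPM in ethanol mice and 879 to 1360 CPM in water mice, and 3 of the 11 had a positive fold change. The 10 glutamatergic neuron markers summed to 2202 to 3517 CPM in ethanol mice and 2642 to 3151 CPM in water mice, with 7 of 10 positive. The 8 oligodendrocyte markers summed to 1485 to 7498 CPM in ethanol mice and 1424 to 12146 CPM in water mice, with 0 of 8 positive and the median log2 fold change at -0.72. The 10 microglia markers summed to 573 to 677 CPM in ethanol mice and 523 to 665 CPM in water mice, with 10 of 10 positive. The 10 astrocyte markers summed to 1918 to 2322 CPM in ethanol mice and 1949 to 2867 CPM in water mice, where mouse 17 was highest. Of these 10 astrocyte markers 2 were positive, with the median log2 fold change at -0.08. None of the genes in these lists passed the threshold, and their part in the subunits' values was not tested. With the neuron marker level as a covariate, the log2 fold change was 0.14 for Grin1, 0.31 for Grin2a and 0.28 for Grin2b, with adjusted p of 0.307, 0.336 and 0.260 by edgeR. For Grin1 and Grin2a these were the highest values over 30 alternatives. The values of Grin2c, Grin2d and Grin3a under this covariate are not reported here. Over the 11 alternatives other than left-out libraries, this covariate among them, Grin2c ran from -0.21 to -0.13, Grin2d from -0.08 to 0.17 and Grin3a from 0.08 to 0.99.

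File names carry a sample index from which 3 sequencing sets could be inferred, and 2 of them held 4 ethanol and 4 water homogenates each. The 4 water homogenates of set 2, of mice 21, 24, 25 and 26, were those whose labels carry the bead isolation text. Within set 2 the water group and that label text therefore cannot be told apart. Leaving these 4 out also leaves set 2 without a water homogenate. The log2 fold changes within set 1 and set 2 were 0.25 and 0.18 for Grin2b and 0.99 and 0.08 for Grin3a. They were 0.02 and 0.30 for Grin2a, -0.21 and -0.15 for Grin2c. The Grin3a value of set 1 includes ethanol mouse 7, at 171 CPM, as 1 of 4 ethanol homogenates. Grin1 (-0.08 and 0.12) and Grin2d (-0.08 and 0.17) differed in sign between the sets. None was called by edgeR within either set.

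In homogenate no gene of the lists of receptor partners passed the threshold by edgeR. At an unadjusted p of 0.05 the counts were 3 of 16 scaffolds, 0 of 13 trafficking genes, 1 of 27 signalling genes, 3 of 13 co-agonist supply genes, 3 of 12 glutamate genes and 2 of 4 AMPA receptor genes, against the 16.1% of all genes. Of 16 postsynaptic scaffold genes, 13 had positive fold changes (median log2 0.09), led by Lrrc7, which encodes densin-180, with 0.39 ± 0.10 (SE, adjusted p = 0.0578), and Homer2, a scaffold linking metabotropic receptors to calcium stores, with 0.31 ± 0.11 (SE, adjusted p = 0.158 by edgeR). The 4 AMPA receptor genes, which encode the fast glutamate channels, all had positive fold changes (median log2 0.17), among them Gria2 at 0.21 and Gria1 at 0.33 (adjusted p = 0.232 and 0.268 by edgeR).

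Among 27 kinases, phosphatases and calcium signalling genes, 14 had positive fold changes. Nos1, the neuronal nitric oxide synthase tethered to the receptor through PSD-95, had 0.64 ± 0.22 (log2 ± SE, adjusted p = 0.156 by edgeR), and Calm2, a calmodulin gene, had -0.13 ± 0.08 (adjusted p = 0.424 by edgeR). Of 13 co-agonist supply genes tested, 5 were positive. They included Shmt1, a glycine-forming enzyme, at 0.86 ± 0.28 (adjusted p = 0.134 by edgeR), whereas Slc6a9, the glial glycine transporter GlyT1, had -0.47 ± 0.21 (adjusted p = 0.269 by edgeR). The 13 trafficking genes (6 positive) had their smallest p in Apba1 (0.15, adjusted p = 0.328 by edgeR) and Lin7c (0.10, adjusted p = 0.352 by edgeR), adaptors of one complex. The 12 glutamate release and uptake genes (6 positive) had theirs in the transaminases Got2 (-0.16, adjusted p = 0.133 by edgeR) and Got1 (-0.18, adjusted p = 0.200 by edgeR).

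Among the 13111 genes with a mean of at least 1 CPM, those whose log2 CPM, less the group mean, varied most like each subunit over the 19 homogenates were sought. Grin1 was nearest to Rab11fip3 (Pearson r = 0.91, Spearman rho = 0.87), Bai1 and Nptn, which encodes the synaptic adhesion protein neuroplastin. Grin2a was nearest to Mast3 (r = 0.90, rho = 0.93), Mbd5 and Fam19a5, and among the genes most like Grin2b were Trio (r = 0.85, rho = 0.76) and Dapk1. Grin2c was nearest to Car2 (r = 0.83, rho = 0.81), Limch1 and Fat3. Grin2d was nearest to Pcbp4 (r = 0.84, rho = 0.83), Lhx6, a transcription factor of interneurons from the medial ganglionic eminence, and Pitpnm1. Grin3a was nearest to St6galnac5 (r = 0.91, rho = 0.87), Rab26 and Ptpre. Without the mouse farthest from the rest, r of the first-named genes lay between 0.76 and 0.90. All points share tissue composition and library depth, so these are descriptions.

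In isolated microglia nearly all signal of the 6 subunits was gone. All 6 were lower than in homogenate in both water mice (49.1% of the genes tested were lower) and ethanol mice (45.6%). No microglia library overlapped a homogenate of the same treatment for any member, but the share of all genes separated in this way was not counted. The median log2 fold change of the 6 was -6.58 in ethanol mice and -6.67 in water mice, against -0.21 and -0.37 over all genes. Every member passed with an adjusted p of at most 7.28e-08 by edgeR, and pairing the fractions by mouse ended no call. Without the microglia of water mice 19 and 24 all 6 were again lower, from -7.60 for Grin1 to -3.77 for Grin2c.

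**Figure D3:**
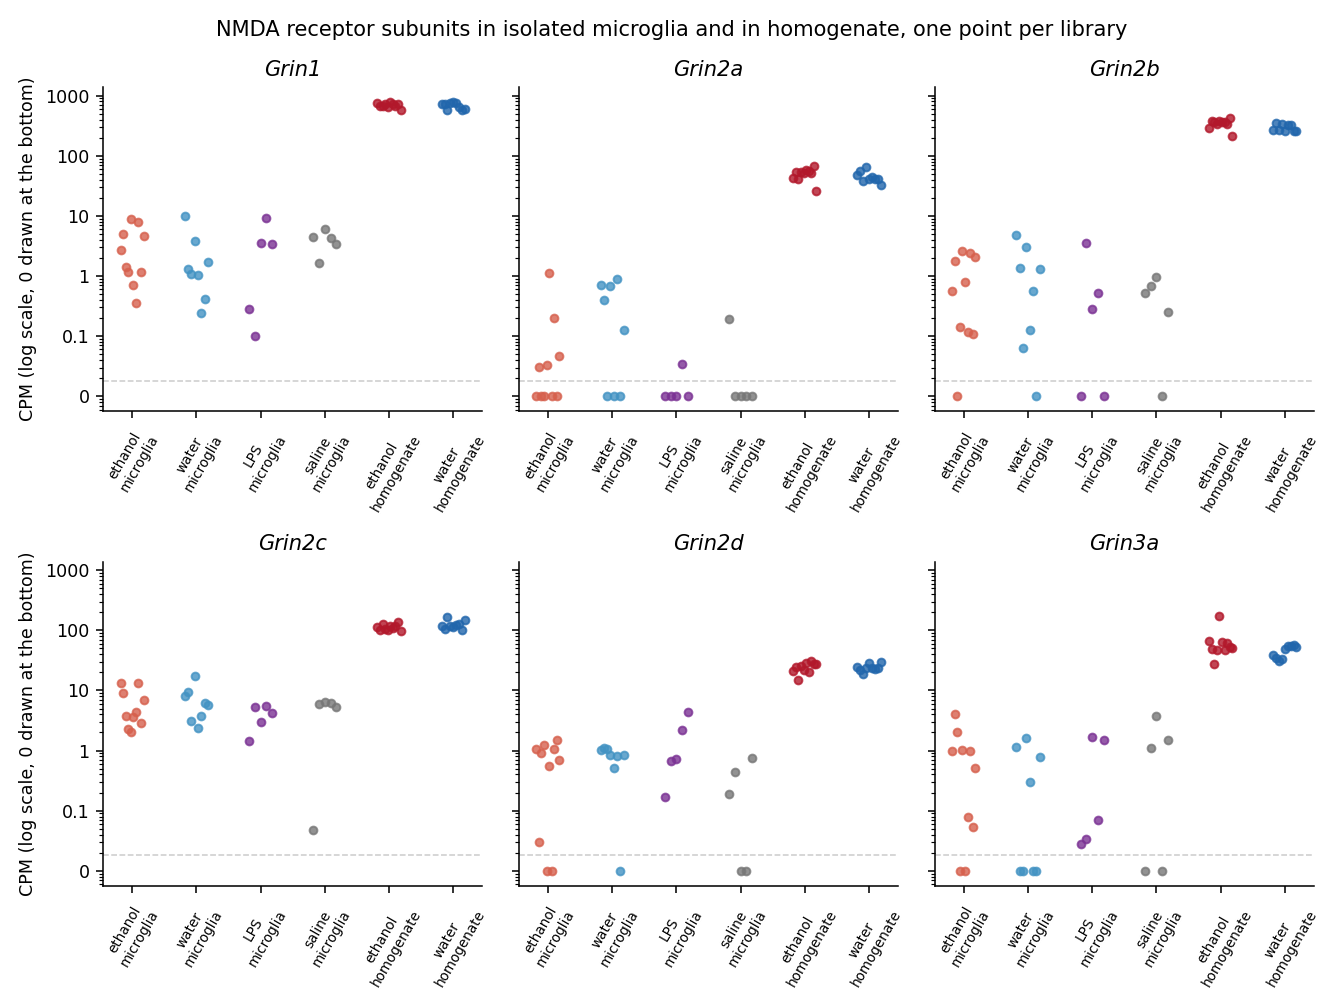
CPM of each subunit on a log scale, 1 point per library, with the 4 microglia groups left of the 2 homogenate groups and libraries without a read drawn at 0 under the dashed line. Every microglia point lies below every homogenate point of its gene, and the highest microglia point of all is Grin2c at 17.3 CPM.

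The size of the fall varied over the family, although the differences between members were not tested. In water mice the log2 fold changes of microglia over homogenate were -8.06 ± 0.61 for Grin1, -6.91 ± 0.53 for Grin2a and -7.60 ± 0.61 for Grin2b (SE). They were -4.09 ± 0.33 for Grin2c, -4.84 ± 0.29 for Grin2d and -6.44 ± 0.68 for Grin3a. In ethanol mice, in the same order, the values were -7.42 ± 0.52, -8.29 ± 0.58, -8.08 ± 0.54, -3.97 ± 0.34, -4.96 ± 0.53 and -5.74 ± 0.65. Grin2c had the smallest fall in both treatments by edgeR. By DESeq2 the fall of Grin1 in water mice was -3.92, smaller than that of Grin2c at -4.10, and the fall of Grin2a in ethanol mice was -4.49, and the cause of these shifts was not tested. The 12 neuron markers were all lower, with a median of -7.41 in water mice, and the 10 astrocyte markers were all lower with a median of -4.91, among them Aqp4 at -5.18, Gfap at -6.58 and Slc1a3 at -2.36.

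As a share of the homogenate level of the same treatment, Grin2c kept 5.45% in ethanol mice and 5.58% in water mice, and Grin2d 2.90% and 3.21%. Grin1 kept 0.490% and 0.357%, Grin2b 0.307% and 0.480%, Grin2a 0.283% and 0.775%, and Grin3a 1.52% and 1.08%. The summed neuron markers kept 0.747% in ethanol mice and 0.601% in water mice, the 4 AMPA receptor genes 0.625% and 0.696%, and the summed astrocyte markers 9.66% and 8.48%. By these means Grin2c lay between the summed neuron and astrocyte markers in both treatments. Its log2 fall was smaller than the median of the astrocyte markers in water mice (-4.09 against -4.91) and ethanol mice (-3.97 against -4.64). The summed oligodendrocyte precursor markers kept 7.17% in ethanol mice and 5.41% in water mice. Grin1 and Grin2b lay below the neuron markers, and below the glutamatergic neuron markers at 1.51% in ethanol mice and 1.16% in water mice. The GABAergic markers kept 1.54% in ethanol mice and 0.404% in water mice, where Grin2b was above them. Against water homogenate, the microglia of the injected mice kept 3.09% of Grin2c after LPS and 3.82% after saline, 6.75% and 1.15% of Grin2d, and 0.480% and 0.575% of Grin1. The neuron markers kept 0.489% after LPS and 0.514% after saline. On group means alone, Grin2d stood above Grin2c after LPS and Grin1 above the neuron markers after saline. Both orders lay within the spread of 5 libraries. After LPS the SD was 7.08% for Grin2d and 1.34% for Grin2c. Mouse 51 had 4.33 CPM of Grin2d, against a group median of 0.717 CPM. After saline the SD was 0.232% for Grin1 and 0.119% for the neuron markers. The injected mice had no homogenate, so water mice of the other cohort served as reference. Whether neuronal or astrocytic RNA carried over with the beads gave the subunit reads in microglia was not tested.

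**Figure D4:**
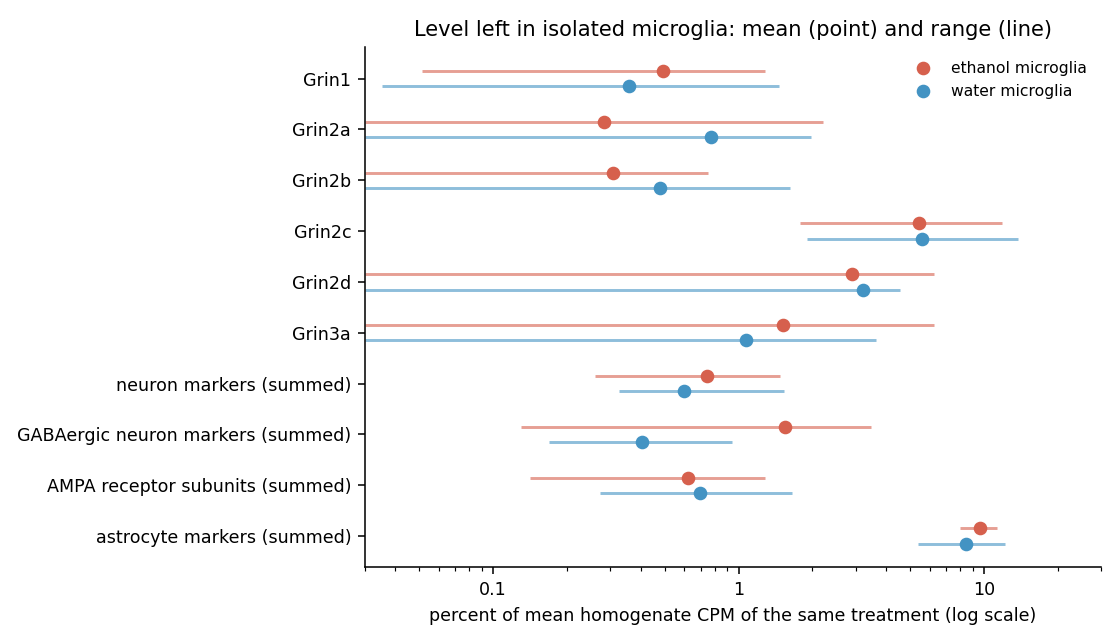
Level in isolated microglia as percent of the mean homogenate CPM of the same treatment (log scale), with the mean as a point and the lowest to highest library as a line, for ethanol (red, n = 10) and water (blue, n = 8) mice. Lines reaching the left edge include libraries at or near 0, and the means of Grin2c, at 5.45% and 5.58%, lie above those of Grin1, Grin2a and Grin2b, all under 1%, although its lines overlap that of Grin2a.

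Library by library, Grin2c had a read in all 28 microglia libraries and over 5 counts in 27, with 0.0480, 5.25 and 17.3 CPM as its lowest, median and highest. Grin1 also had a read in all 28 libraries, with over 5 counts in 26 of them and a median of 2.21 CPM. Grin2a was at 0 in 16 of 28 and Grin3a in 8, and Grin2b and Grin2d were at 0 in 5 each. A count of 0 allows up to 3 counts, which equals 0.0752 to 0.309 CPM in these libraries by counting error alone. The count of Grin2c over that of Grin1 was higher in microglia than in homogenate of the same mouse in 18 of 18 mice, with medians of 2.75 in microglia and 0.160 in homogenate. The ratio to Grin1 was higher in microglia in 16 of 18 mice for Grin2d, 12 for Grin3a and 7 each for Grin2a and Grin2b. These ratios add 0.5 counts to both genes in microglia only. By edgeR the log2 fold change of Grin1 was -8.06 in water mice and -7.42 in ethanol mice, so a gene that fell less gains against it. The counts of mice therefore restate the fold changes above, and the share over all genes was not counted.

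Most genes of the receptor's partners were lower in microglia as well. Over all 15057 genes tested in water mice, 49.1% were lower and 5314 genes were higher. In water mice 15 of 16 scaffold genes were lower in microglia, with Dlg3 (SAP102) at -3.36, Homer1 at -4.11, Dlg4, the gene of PSD-95, at -4.75 and Dlgap4 at -2.03 (log2), and Homer3 was higher at 1.62. Of 13 trafficking genes 12 were lower, such as Nsf at -3.95, and Lin7c was higher at 0.29. Of 27 signalling genes 26 were lower, among them Ppp3cb, a catalytic subunit of calcineurin, at -2.16, and Camk2d did not pass (-0.21).

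Of 13 co-agonist supply genes 9 were lower, with the serine racemase gene Srr at -3.22, and 3 were higher, Shmt1 at 3.98, Shmt2 at 0.59 and Phgdh, the first enzyme of serine synthesis, at 0.40. Of 12 glutamate genes 11 were lower, with the astrocytic transporter Slc1a2 at -5.56, and the glutamine synthetase gene Glul did not pass (-0.13). All 4 AMPA receptor genes were lower, from -7.70 for Gria1 to -6.40 for Gria4.

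No ethanol effect on the remaining subunit signal was detectable in microglia. Grin2a was too low to be tested, and 0 of the other 5 were called by edgeR, where 0.00756% of all genes were, and 0 by DESeq2 and limma voom. At an unadjusted p of 0.05, 0 of 5 were counted, against 7.65% of all genes. The log2 fold changes were 0.47 ± 0.67 for Grin1, -0.41 ± 0.94 for Grin2b, -0.22 ± 0.41 for Grin2c, -0.14 ± 0.87 for Grin2d and 0.99 ± 1.18 for Grin3a (SE), with adjusted p of 0.923 to 0.995. Grin1 had 0.356, 2.04 and 8.91 CPM (lowest, median, highest) in ethanol microglia and 0.243, 1.19 and 10.01 CPM in water microglia, and Grin2c 2.01, 4.07 and 13.3 CPM in ethanol microglia and 2.38, 6.04 and 17.3 CPM in water microglia. Without water mice 19 and 24 the values were 0.18 for Grin1, -0.80 for Grin2b, -0.36 for Grin2c, -0.41 for Grin2d and 0.70 for Grin3a, with 0 of 5 called by edgeR. Leaving out 1 library turned the sign of Grin2b (to 0.17 without water mouse 15), of Grin2c (to 0.10 without water mouse 18) and of Grin2d (to 0.02 without ethanol mouse 7), and the value of Grin1 ran from 0.18 to 1.28. Within set 2 Grin2b was 1.01 and Grin2c 0.29. The ranges overlapped for all members, and the errors, over 1 log2 unit for Grin3a, leave sizeable changes undetectable at this depth.

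The ethanol response of microglia was set against that of homogenate by an interaction term, and 0 of 6 members differed by edgeR at an adjusted p of 0.05, where 0.342% of all genes did (54 genes, and 0 genes with the mouse as replicate block). At an unadjusted p of 0.05 the count was also 0, against 12.4% of all genes. The smallest p was that of Grin2a, with a log2 difference of -1.51 ± 0.78 (SE, adjusted p = 0.445, unadjusted p = 0.0626), from 37 reads in ethanol microglia and 77 in water microglia.

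A week after LPS, 0 of 5 subunits tested were called against saline by edgeR, where 0.0160% of all genes were, with 0 at an unadjusted p of 0.05 (5.78% of all genes) and 0 by DESeq2 and limma voom. Grin2c had 1.43, 2.96, 4.24, 5.26 and 5.46 CPM in LPS microglia and 0.0480, 5.24, 6.07, 6.24 and 6.37 CPM in saline microglia. All LPS values lay below the saline median, while saline mouse 38, with 1 read, was lowest of all. The log2 fold change was -0.29 ± 0.86 (SE, adjusted p = 0.999 by edgeR).

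Grin2d had 0.168, 0.666, 0.717, 2.22 and 4.33 CPM in LPS microglia and 0, 0, 0.192, 0.441 and 0.752 CPM in saline microglia. The 2 highest LPS libraries lay above every saline library, and the highest, of mouse 51, had 41.3% of reads outside genes. The log2 fold change of Grin2d, 2.54 ± 1.63, was the largest of the 5 and did not pass (SE, adjusted p = 0.987, unadjusted p = 0.138 by edgeR). The others had -0.27 ± 0.98 for Grin1, 0.90 ± 1.78 for Grin2b and -0.91 ± 1.75 for Grin3a (log2 ± SE), with adjusted p of 0.999. The sign of each rested on single libraries, since without LPS mouse 40, which held 108 of the 132 Grin2b reads of its group, Grin2b was -1.25 and Grin1 0.04, and without saline mouse 46 Grin3a was 0.06. The library of LPS mouse 40 had 41.8% of reads outside genes. By limma-voom Grin2b was -0.68 and Grin2c 0.13. Grin2a had 1 read in all LPS libraries and 4 in all saline libraries and was not tested.

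**Figure D5:**
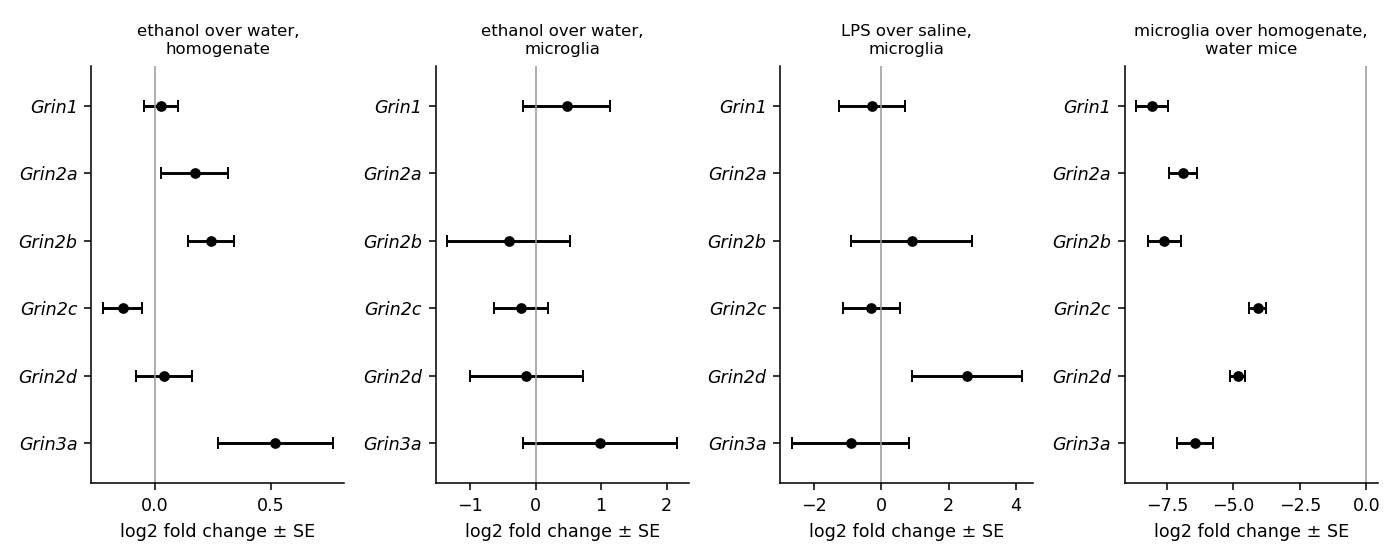
Log2 fold change ± SE of each subunit in the 4 comparisons, each panel with its own axis, from edgeR. The ethanol and LPS panels hold values on both sides of 0 and none past the threshold, with no point for Grin2a in the 2 panels within microglia, and in water mice all 6 subunits lie below -4 in microglia over homogenate.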

How the data were processed

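Poly(A) RNA of 48 samples was sequenced as directional paired-end 75 base reads, per the labels' protocols, and 47 had counts (the microglia of 1 water mouse were removed, per the labels). Per the submitters' processing notes the authors used bcl2fastq 2.15.0.4, STAR, FastQC, HTSeq and DESeq2 with mm10; their settings, annotation and strand mode are not stated there. The deposited values are raw read counts per gene, with 5 tally rows (reads outside genes and the like) left out of library sizes.

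Counts were tested with edgeR 4.0.16 (quasi-likelihood, TMM, filterByExpr; R 4.3.3) over all genes of a comparison, with Benjamini-Hochberg adjustment at 0.05. DESeq2 1.42.0, limma 3.58.1 voom, RLE scaling, other filters, covariates, sequencing sets inferred from file names, and left-out libraries were alternatives. The procedure was tested on simulated data. CPM are over reads in genes. Per-length levels used GENCODE lengths on GRCm38. Homogenate and microglia of a mouse share their tissue (median correlation of deviations 0.0355 over 18 pairs), per the protocol. Members and lists were chosen with earlier results of these data known. Named genes were the 6 members, up to 4 called or 2 uncalled genes of smallest p per pathway list, and the 3 genes most like each member; some items under this rule are not reported here. Grin1 overlaps the antisense gene Grin1os over 1307 exonic bases, and 11.1% of the 75 base stretches of Grin2a also occur in Gm7328, which the count files do not list, so counts of these genes are less certain; Grin1os averaged 0.617 CPM in ethanol and 0.721 CPM in water homogenates.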

Additional observations from a re-analysis of the deposited data

Results flagged for a closer look

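Of 38 groups of values tested, each with 4 to 10 libraries, 8 held a library far from the others by Dixon's criterion at 95%. For normally distributed values, chance meets this criterion in about 1 in 20 groups. That rate does not hold for groups made mostly of counts of 0, such as Grin2a in LPS and saline microglia, where 4 of 5 libraries were at 0. It need not hold either for widely spread low values, such as Grin1 in water microglia, with a coefficient of variation of 133%. In homogenate, Grin3a stood at 171 CPM (6692 counts) in ethanol mouse 7. In microglia of ethanol mice, Grin3a was highest in mouse 2 at 4.002 CPM (131 counts) and Grin2a in mouse 9 at 1.11 CPM (28 counts). In microglia of water mice, Grin1 was highest in mouse 15 at 10.01 CPM (259 counts), and the same library was highest for the summed neuron markers at 153 CPM. In LPS microglia, Grin2b was highest in mouse 40 at 3.596 CPM (108 counts) and Grin2a in mouse 50 at 0.0348 CPM, which is 1 count. In saline microglia of mouse 38, Grin2a was highest at 0.192 CPM, which is 4 counts, and Grin2c lowest at 0.0480 CPM, which is 1 count.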

How the results depend on the processing

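Under every alternative run, 0 subunits were called for ethanol in homogenate (30 alternatives), ethanol in microglia (29) and LPS (15), and 6 of 6 were lower in microglia in both treatments, in 7 alternatives for water mice (2 of them, which leave out the microglia of water mice 19 and 24 or 4 homogenates, chosen after seeing the data) and 5 for ethanol mice. The number of genes called moved more. For ethanol in homogenate it was 123, with 62 without a filter, 534 by DESeq2, 30 with the neuron marker level and 0 with the share of reads outside genes as covariate, 0 within sequencing set 1 and 0 within set 2, 39 (without water mouse 18) to 275 (without ethanol mouse 1) on leaving out 1 library, and 225 without the 4 water homogenates labelled with the isolation, an alternative chosen after seeing the data. For ethanol in microglia it was 1, with 48 by DESeq2, 8 by voom, 0 in set 1, 4 in set 2 and 0 to 7 on leaving out 1 library. For LPS it was 2, with 17 without a filter, 67 by DESeq2, 1 by voom and 0 to 6 on leaving out 1 library. For the interaction it was 54, with 35 under a stricter filter, 265 by DESeq2 and 0 with the mouse as replicate block, and this block changed no call of a subunit. The cause was not tested. Leaving out 1 library, the log2 difference of the Grin2a to Grin2b ratio ran from -0.11 to -0.03. In microglia the subunits' low counts, with Grin2a at 0 in 16 of 28 libraries, limit what these comparisons can detect.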
